A study of Mus musculus with 12 samples.

Results

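Primary mouse hepatocytes (mouse HPC), the parenchymal cells of the liver, were measured after 4 h with 1 ng/mL TGF-β1 and compared with untreated cells. The comparison rests on 6 of the 12 Affymetrix arrays of the series, chosen by their titles: 3 of cells after 4 h with TGF-β1 and 3 of control cells, paired by the replicate number in the title. The other 6 arrays, of cells after 20 min and 2 h with TGF-β1, enter the fit and are given here only beside the 4 h values. In both groups the cells came from C57BL/6 mice labelled male, were isolated with collagenase, plated on collagen in a serum-free medium, cultured for 24 h after a first change of medium, and given fresh medium 1 h before stimulation. The 4 h cells then received recombinant human TGF-β1, and the control cells received no agent and stand for the start of the time course. The treated cells had therefore also spent 4 h longer in this medium, and TGF-β1 and the time in medium cannot be told apart in this comparison.

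TGF-β1 binds the type II receptor on the cell surface, which recruits and activates a type I receptor. The type I receptor phosphorylates SMAD2 and SMAD3, which enter the nucleus with SMAD4 and act on target genes together with other transcription factors and with corepressors. Among the targets are inhibitors of the pathway itself, and in hepatocytes TGF-β is known for slowing growth, for cell death and for changes of shape and adhesion.

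Each array gave a log2 signal for every probe set, summarised by the authors with RMA, a method that brings arrays to a common distribution. Tests were run on the 21789 of 35556 probe sets with a single gene symbol, and each of 19938 genes is given by its probe set with the highest mean signal. The limma model held terms for time and for replicate. A gene was called at an adjusted p (Benjamini-Hochberg over all tested probe sets) under 0.05. Errors are standard errors of the log2 fold change from this fit, with 3 arrays in each group. Replicate numbers were the only sign of which samples belong together, and nothing in the labels says that they were separate animals, so p-values measure the spread between these samples.

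The arrays of replicate 1 stood apart from those of replicates 2 and 3, and replicates 2 and 3 went against their label. Xist, the RNA of the inactive X chromosome, had log2 signals of 12.7 to 12.9 on the 8 arrays of replicates 2 and 3 and of 5.82 to 6.37 on the 4 arrays of replicate 1. The Y-linked gene Eif2s3y lay between 4.53 and 4.69 on the arrays of replicates 2 and 3 and between 8.14 and 9.06 on those of replicate 1, and Uty and Kdm5d were split in the same way. So the arrays of replicates 2 and 3 carry Xist and little signal of Y-linked genes although all samples are labelled male. This split runs between replicates and not between treated and control cells, since each pair holds 1 array of both groups. The paper reports a strong batch effect on its mouse HPC arrays, which the study adjusted for after summarising them with another method, FARMS. The values used here are the deposited RMA values, not those the study analysed. Whether that batch effect is the split seen here was not tested. A gene stood more than 1 log2 unit apart between replicate 1 and the mean of the other 2 replicates, in both groups and in the same direction, in 1.39% of all tested genes, in 1.82% of the genes called higher and in 12.9% of the genes called lower. The cells carried hepatocyte markers: albumin (Alb) had log2 signals of 14.61, 14.55 and 14.62 at 4 h and 14.63, 14.62 and 14.57 in control cells, near the top of the range of 3.84 to 15.2.

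After 4 h with TGF-β1, 966 genes were called in limma, 4.85% of those tested. Of these 330 were higher (1.66% of tested genes) and 636 were lower (3.19%). Most changes were small. The change was at least 2-fold in 18 genes called higher (0.0903%) and 9 called lower (0.0451%). In 938 genes (4.7% of tested genes) it was under 2-fold and had the same sign in all 3 pairs, with 311 higher (1.56%) and 627 lower (3.14%). The median log2 fold change was 0.41 in the 311 genes, between 0.23 and 0.98, and -0.40 in the 627 genes, and in 683 of the 938 its size was under 0.5. The median over all tested genes was 0.02. Slc7a6, an amino acid transporter at 0.60, was the 1 gene called under 2-fold without agreement of the pairs, with no difference in replicate 1. Agreement in sign alone is common, since the 3 pairs had 1 sign in 35.7% of all tested genes. Among called genes it adds little to the call. A fit with a replicate term favours genes whose pairs differ alike, and 938 of the 939 calls under 2-fold agreed.

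**Figure D1:**
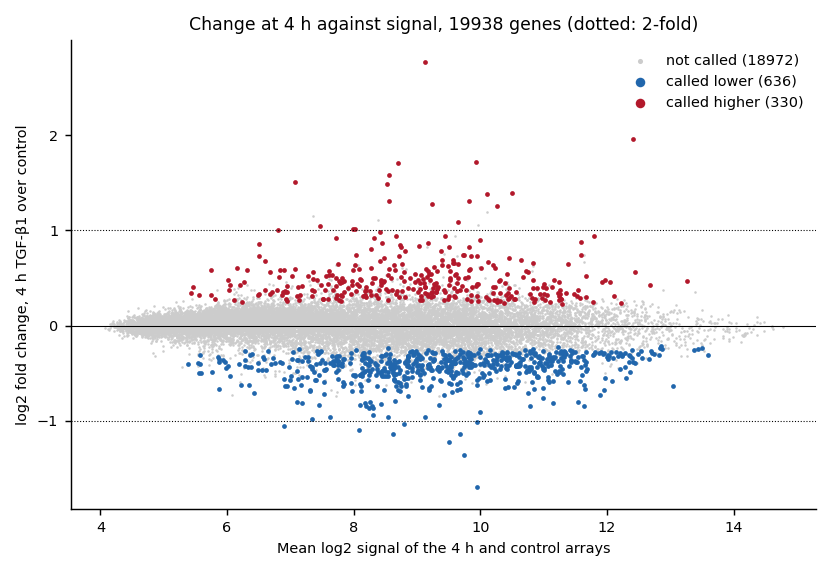
Log2 fold change of 4 h TGF-β1 over control cells (y axis) against the mean log2 signal of the 4 h and control arrays (x axis), 1 point per gene, for 19938 genes. Red points are the 330 genes called higher and blue points the 636 called lower; nearly all called genes lie between the dotted lines at 2-fold.

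The 3 pairs did not contribute alike. In the 311 genes called higher under 2-fold, the median log2 difference was 0.37, 0.50 and 0.35 in replicates 1, 2 and 3, and the difference was largest in replicate 2 for 202 genes. In the 627 genes called lower, the medians were -0.47, -0.36 and -0.38, and the difference was largest in size in replicate 1 for 351 genes. The values of the 2 groups did not overlap in 157 of the 311 genes, with every 4 h array above every control array, and in 301 of the 627, with every 4 h array below. Over all tested genes, the groups did not overlap in 5.55% with the 4 h arrays higher and in 5.68% with the 4 h arrays lower. The called genes were selected on these same arrays, so a larger share is due among them and is no separate support. The remaining called genes overlapped between groups and were called on the differences within pairs. Calls were few at low signal: from the fifth of genes with the lowest mean signal to that with the highest, 5, 16, 69, 124 and 116 genes were called higher and 6, 27, 82, 222 and 299 lower.

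The number of calls depended on the replicates. Without replicates 1, 2 and 3, limma called 942, 99 and 31 genes, of which 605, 97 and 31 were among the 966, and with no replicate block it called 30, all among the 966. The balance of directions moved too: 34.2% of the calls were higher in the fit of all replicates, and 49.5%, 27.3% and 48.4% without replicates 1, 2 and 3.

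Several genes of the TGF-β pathway that act as inhibitors or corepressors rose. Gene lists here and below were written with earlier results of these data known, so their counts are a description and not a test. Of 16 measured members of this list, 5 were called higher and 0 lower, with a median log2 fold change of 0.21. Apart from Pmepa1 and Skil, whose changes were over 2-fold, these were Smad6, an inhibitory SMAD, Ski, a corepressor of SMAD complexes, and the ubiquitin ligase adaptor Spsb1. Ski had log2 signals of 9.97, 10.31 and 10.20 at 4 h, against 9.58, 9.71 and 9.88 in control cells. Every 4 h array lay above every control array, and the log2 fold change was 0.43 ± 0.07 (limma, adjusted p = 0.00572). Smad6 gave 7.21, 7.20 and 7.15 at 4 h and 6.67, 6.60 and 6.53 in control cells, with pair differences of 0.54, 0.60 and 0.62 (0.59 ± 0.08, adjusted p = 0.00391). Smad7, the inhibitory SMAD induced by TGF-β in many cells, had pair differences of 0.60, 1.51 and 1.22 and was not called (1.11 ± 0.34, limma adjusted p = 0.0993). Of the 5 calls, 5, 2 and 1 remained without replicates 1, 2 and 3, and 1 with no replicate block.

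Of 14 receptors of the family, 3 were called higher (21.4%) and 0 lower, beside 1.66% and 3.19% of all tested genes. Besides Tgfbr1, the type I receptor for TGF-β, these were Acvr1, a type I receptor for BMPs and activins, and Bmpr2, a type II receptor for BMPs. Acvr1 had 9.45, 9.72 and 9.58 at 4 h, against 9.05, 8.86 and 8.99 in control cells, and Bmpr2 had 11.21, 11.62 and 11.40, against 10.91, 10.90 and 10.98. Neither gene overlapped between the groups, with log2 fold changes of 0.62 ± 0.10 and 0.48 ± 0.08 (limma, adjusted p = 0.0083 and 0.00866). The 14 receptors had no common direction, with 7 negative and 7 positive changes and a median of 0.01. Without replicate 2 or replicate 3 the calls of Acvr1 and Bmpr2 were lost (limma, adjusted p between 0.0637 and 0.16). Of 11 SMADs that transduce the signal and their partners, and of 25 ligands and their binding proteins, 0 were called higher. The only call was Inhbc, an inhibin subunit made in liver, at -0.40 ± 0.10 (limma, adjusted p = 0.0424).

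**Figure D2:**
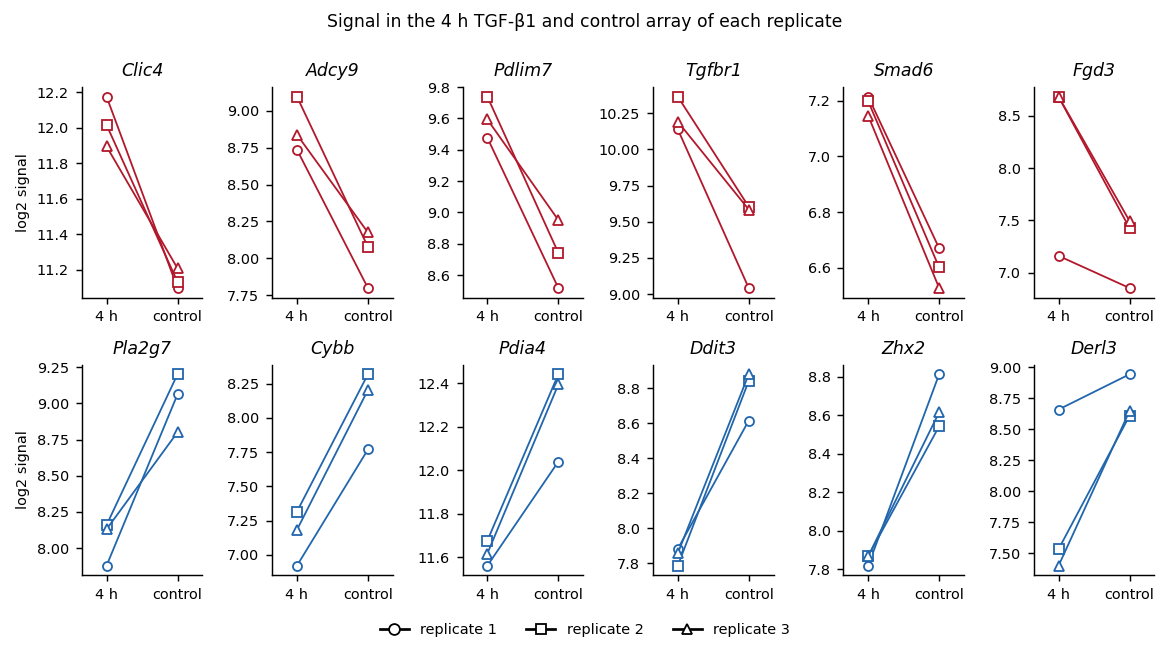
Log2 signals (y axis) of 12 genes called under 2-fold, with the 4 h TGF-β1 array on the left and the control array of the same replicate on the right of each panel. Circles, squares and triangles joined by lines are replicates 1, 2 and 3, red for genes called higher and blue for genes called lower; Fgd3 and Derl3 show replicate 1 apart, while the lines of Smad6 run in parallel.

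Calls among genes of actin filaments and of focal adhesions, the sites where integrins link the cytoskeleton to the matrix, were more often higher than lower. Of 41 actin genes 8 were called higher, 1, the non-muscle myosin Myh10, lower and 32 were not called, with a median of 0.15 and positive changes in 36, beside 56.8% positive among all tested genes. Of 25 focal adhesion genes 5 were called higher, 1 lower and 19 were not called, with a median of 0.09. Palld, an actin-bundling protein, had pair differences of 0.56, 0.63 and 0.32 (0.50 ± 0.07, limma adjusted p = 0.0041). Tns3, a tensin that binds integrin tails, had 9.45, 9.91 and 9.83 at 4 h and 8.63, 9.17 and 9.33 in control cells (0.68 ± 0.09, limma adjusted p = 0.0033). In both genes each 4 h array lay above all 3 control arrays. Bcar3, an adaptor that joins Bcar1 and Src family signaling at adhesions, rose by 0.84 ± 0.09 (limma, adjusted p = 0.00143), and the kindlin Fermt1, an activator of integrins, rose by 0.73 ± 0.13 (adjusted p = 0.012). Fermt1 was a gene of low signal, at 6.55, 6.94 and 7.10 at 4 h and 6.16, 6.23 and 6.01 in control cells. Sorbs3 (vinexin), a vinculin-binding adaptor, went the other way, at 7.93, 7.66 and 7.59 at 4 h and 8.48, 8.22 and 8.05 in control cells (-0.53 ± 0.07, limma adjusted p = 0.0031). The integrin subunits Itga3 and Itgb5 were the called members of 24 integrins and laminins, at 0.69 ± 0.13 and 0.45 ± 0.11 (limma, adjusted p = 0.016 and 0.0372). Without replicate 2, 2 of the 9 actin calls and 1 of the 6 focal adhesion calls remained, and without replicate 3 the counts were 2 and 1.

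Among all genes called higher under 2-fold, the largest change was in Tmem37, a homolog of calcium channel gamma subunits, with 8.29, 9.26 and 9.16 at 4 h and 7.84, 7.97 and 7.95 in control cells (0.98 ± 0.14, limma adjusted p = 0.00374). Cemip2, a cell surface hyaluronidase, followed at 0.95 ± 0.21, and its pair differences of 0.27, 1.49 and 1.07 were far apart. Fgd3, an exchange factor for the small GTPase Cdc42, had 7.16, 8.68 and 8.68 at 4 h and 6.85, 7.43 and 7.49 in control cells, so the 4 h array of replicate 1 lay below the control arrays of replicates 2 and 3. In contrast, Clic4, a protein of the chloride intracellular channel family, separated the groups clearly, with 12.17, 12.01 and 11.89 at 4 h and 11.10, 11.13 and 11.21 in control cells (0.88 ± 0.09, limma adjusted p = 0.00116). Sphk1, the kinase that makes sphingosine 1-phosphate, stood at 0.94 ± 0.14 with pair differences of 1.09, 0.96 and 0.77. Zfp697, a zinc finger protein, had even differences of 0.92, 1.00 and 0.85. Shroom3, which draws actin and myosin to the apical surface, and Ahnak, a scaffold protein under the membrane, stood at 0.84 ± 0.13 and 0.82 ± 0.15. Calls of these genes were often lost without a replicate: for Fgd3 the adjusted p in limma was 0.132 without replicate 2 and 0.212 without replicate 3, and for Tmem37 0.0637 and 0.117, while Clic4 and the adenylyl cyclase gene Adcy9 were called under every alternative.

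**Figure D3:**
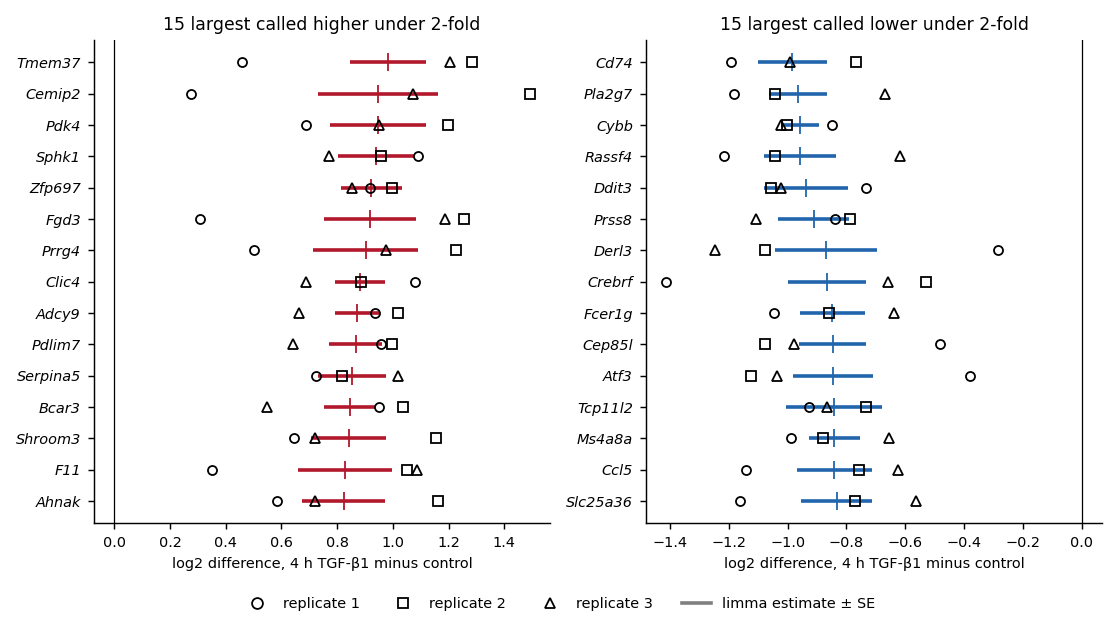
Log2 differences of 4 h TGF-β1 minus control (x axis) for the 15 largest changes called higher (left, red) and the 15 called lower (right, blue) under 2-fold. Circles, squares and triangles mark replicates 1, 2 and 3, and coloured bars are limma estimates with their standard errors. By the selection, the 3 pairs of each gene lie on 1 side of 0, and replicate 1 is often apart.

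Further receptors and regulators rose by less than 2-fold. Of 29 genes of the Wnt pathway 3 were called higher and 0 lower: the Wnt receptor Fzd4 at 0.65 ± 0.13, the transcription factor Tcf7l2 at 0.60 ± 0.13 and, over 2-fold, the receptor Ror1 (limma, adjusted p = 0.0169, 0.0259 and 0.00176). Tcf7l2 had pair differences of 0.13, 0.91 and 0.76. Of 18 enzymes that modify collagen 3 were called higher and 0 lower. With Lox these were the transglutaminase Tgm2, at 12.93, 12.92 and 12.82 at 4 h and 12.57, 12.45 and 12.37 in control cells (0.43 ± 0.07, limma adjusted p = 0.00809), and Bmp1, the procollagen C-proteinase, at 0.61 ± 0.12 (adjusted p = 0.0151). Of 19 collagen chains, the substrates of these enzymes, 1 was called, Col15a1 at 0.28. Of 13 Krüppel-like factors, Klf7 and Klf4 were called higher at 0.57 ± 0.12 and 0.52 ± 0.11, and Klf9, a factor induced by glucocorticoids, was lower with 10.90, 10.93 and 10.88 at 4 h and 11.33, 11.27 and 11.37 in control cells (-0.42 ± 0.07, limma adjusted p = 0.0108). Of 16 corepressors and coactivators, Tbl1xr1, a subunit of the NCoR complex, stood at 0.66 ± 0.10 and Hdac7 at 0.50, while the coactivator Ppargc1b was lower at -0.41 (limma, adjusted p = 0.00452, 0.00979 and 0.0165). Of the Wnt calls 3, 1 and 1 remained without replicates 1, 2 and 3, and of the Krüppel-like factors 3, 0 and 0.

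The endoplasmic reticulum (ER) held the list with the highest share of lower calls among the 72 lists of pathways. These lists were written with earlier results of these data known, so the rank is a description. Secreted proteins fold in the ER with the help of chaperones and disulfide isomerases, and misfolded proteins are sent from there to degradation. Of 37 measured genes of this machinery, 18 were called lower (48.6%, beside 3.19% of all tested genes) and 0 higher, the median was -0.28, and 30 were negative in all 3 pairs. The share of all tested genes is not matched for signal. Of all lower calls, 299 lay in the fifth of genes with the highest signal, at log2 9.56 and above. This list had mean log2 signals of 10.50, 10.51 and 10.45 at 4 h. The disulfide isomerase Pdia4 had 11.56, 11.68 and 11.62 at 4 h, against 12.04, 12.44 and 12.39 in control cells. Its groups did not overlap, with a log2 fold change of -0.67 ± 0.09 (limma, adjusted p = 0.0033). The stress sensor Ern1 (IRE1), with 11.10, 11.52 and 11.49 at 4 h and 11.45, 11.97 and 11.98 in control cells, did overlap, since replicate 1 lay lower in both groups (-0.43 ± 0.06, limma adjusted p = 0.00355). The co-chaperone Dnajb9 stood at -0.63 ± 0.12 and the isomerase Pdia6 at -0.42 ± 0.07. In Derl3, which guides misfolded proteins out of the ER, the pair differences were -0.28, -1.08 and -1.25, and in Creld2, a protein of the ER lumen, -0.48, -1.01 and -0.92. Hspa5 (BiP), the main chaperone of the ER, stood at -0.32 and Xbp1, the transcription factor made through Ern1, at 0.02, and neither was called. Of the 18 calls 14, 0 and 0 remained without replicates 1, 2 and 3, and 1 with no replicate block. Median pair differences of the 37 genes were -0.27, -0.22 and -0.34 in replicates 1, 2 and 3.

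Promoters of this list are shown because many of its genes carry the ER stress element, a binding site of the factors ATF6 and NF-Y that is written CCAAT, 9 bases of any kind and CCACG. The search covered the 250 bases before each start in the RefSeq promoter table (GRCm38.p6), on both strands, and the element was chosen after the values of these genes had been seen. The element was found in 20 of 15614 tested genes with a promoter in the table (0.128%), and 10 of these 20 belonged to the 31 genes of the list that have one. Of the 10, 5 were called lower and 5 were not called. The element was held by 35.7% of the 14 called members with a promoter, close to the 32.3% of all 31 members, so it did not mark the called members. Beside its name each line gives the build's coordinates of the printed bases. Outside the list, 0 called genes held it. The elements follow on their own strand with 15 bases on each side and with CCAAT and CCACG in capitals, first those of the 5 genes called lower and then those of the 5 genes not called.
Calr (chr8:84847060-84847108, plus strand): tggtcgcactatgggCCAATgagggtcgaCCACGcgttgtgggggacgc
Creld2 (chr15:88819505-88819553, minus strand): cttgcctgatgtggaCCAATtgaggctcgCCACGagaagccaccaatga
Derl3 (chr10:75893227-75893275, minus strand): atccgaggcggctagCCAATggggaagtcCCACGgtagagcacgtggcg
Hsp90b1 element 1 (chr10:86705623-86705671, minus strand): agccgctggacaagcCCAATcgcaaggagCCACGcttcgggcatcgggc
Hsp90b1 element 2 (chr10:86705518-86705566, plus strand): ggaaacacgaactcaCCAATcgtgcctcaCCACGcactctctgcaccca
Pdia6 (chr12:17266476-17266524, plus strand): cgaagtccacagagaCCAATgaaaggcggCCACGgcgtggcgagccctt
Canx (chr11:50325785-50325833, minus strand): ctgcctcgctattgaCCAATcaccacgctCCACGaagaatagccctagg
Dnajc3 (chr14:118937812-118937860, plus strand): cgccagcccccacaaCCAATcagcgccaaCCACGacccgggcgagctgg
Ero1b (chr13:12565667-12565715, minus strand): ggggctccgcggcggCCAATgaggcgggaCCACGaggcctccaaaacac
Hspa5 (chr2:34772010-34772058, plus strand): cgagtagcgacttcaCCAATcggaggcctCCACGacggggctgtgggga
Syvn1 (chr19:6046517-6046565, plus strand): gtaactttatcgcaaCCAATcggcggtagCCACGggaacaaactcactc
The upstream window of Hsp90b1 (GRP94), the chaperone with an element on both strands, is given in full from chr10:86705445-86705694 on the minus strand, with both elements in capitals, the one on the opposite strand read as its reverse complement.
Hsp90b1: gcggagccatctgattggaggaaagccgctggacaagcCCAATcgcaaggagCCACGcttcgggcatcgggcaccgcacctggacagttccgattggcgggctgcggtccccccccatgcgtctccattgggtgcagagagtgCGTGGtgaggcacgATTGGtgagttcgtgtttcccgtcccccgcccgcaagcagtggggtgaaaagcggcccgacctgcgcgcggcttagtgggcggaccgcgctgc
Hsp90b1 had log2 signals of 12.16, 12.15 and 12.01 at 4 h and 12.44, 12.75 and 12.62 in control cells (-0.49 ± 0.09, limma adjusted p = 0.0127). Calr (calreticulin), another holder of the element, had 12.28, 12.40 and 12.32 at 4 h and 12.42, 12.72 and 12.75 in control cells (-0.30 ± 0.07, adjusted p = 0.0372). All 3 arrays at 4 h lay below the control arrays in both genes.

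Some stress and early response genes were lower. Of 25 genes of the integrated stress response 3 were called lower, 0 higher and 22 were not called, with a median of -0.01 and 13 negative and 12 positive changes. The called members were Ddit3 (CHOP), the stress-induced transcription factor, the kinase Eif2ak3 (PERK) and the phosphatase subunit Ppp1r15a. Ddit3 had 7.88, 7.79 and 7.86 at 4 h, against 8.62, 8.84 and 8.88 in control cells, with no overlap (-0.94 ± 0.14, limma adjusted p = 0.00525). Crebrf, which binds and destabilizes the ER stress factor CREB3, stood at -0.87 ± 0.13 with pair differences of -1.41, -0.53 and -0.66. Of 21 immediate early factors 4 were called lower and 0 higher. Jun, a subunit of AP-1, had 11.24, 10.92 and 11.01 at 4 h and 11.76, 11.33 and 11.45 in control cells (-0.46 ± 0.07, limma adjusted p = 0.00451). The pairs were even in Egr1, at -0.53, -0.50 and -0.50, and uneven in Atf3, at -0.38, -1.12 and -1.04, while Myc was lowered by only 0.29 ± 0.07 on the log2 scale. Of 31 autophagy genes 6 were called lower and 0 higher, with a median of -0.16. Among them were Atg13, a subunit of the kinase complex that starts autophagy, with pair differences of -0.43, -0.45 and -0.40, the cargo receptor Nbr1 at -0.37 ± 0.06 and the lipid transfer protein Atg2a at -0.61 ± 0.09. Of the 4 early response calls 4, 0 and 0 remained without replicates 1, 2 and 3, and of the 6 autophagy calls 3, 0 and 0.

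Enzymes of amino acid breakdown, a main task of hepatocytes, formed the next group. Of 26 enzymes for tryptophan, histidine, phenylalanine and tyrosine 12 were called lower and 0 higher, with a median of -0.34, and 23 were lower in all 3 pairs. Kyat1, an aminotransferase of the kynurenine pathway, had 11.76, 11.68 and 11.62 at 4 h and 12.32, 12.20 and 12.21 in control cells, with no overlap (-0.56 ± 0.07, limma adjusted p = 0.00236). Kmo, the monooxygenase of the same pathway, had 11.28, 9.91 and 9.85 at 4 h and 11.68, 10.35 and 10.27 in control cells. Here the groups overlapped because replicate 1 stood more than 1 log2 unit above the others, yet the pair differences of -0.40, -0.44 and -0.43 were nearly equal (-0.42 ± 0.06, adjusted p = 0.00488). Ido2 stood at -0.53 ± 0.08 (adjusted p = 0.0055). Of 34 enzymes of branched chain, sulfur and one-carbon metabolism 11 were called lower and 0 higher (median -0.29), among them Sardh, the sarcosine dehydrogenase, at -0.46 ± 0.07. Of 19 genes of the urea cycle and of glutamine metabolism 6 were lower and 0 higher (median -0.24), with the argininosuccinate lyase Asl at -0.38 ± 0.08. The amino acid transporters Slc6a9, for glycine, and Slc7a2, for cationic amino acids, stood at -0.42 ± 0.06 and -0.59 ± 0.09, and 9 of 27 such transporters were lower and 1 higher. Of the 12 calls of the first list 10, 4 and 0 remained without replicates 1, 2 and 3, and 0 with no replicate block.

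Enzymes of drug, bile acid and lipid metabolism held many lower calls, although most members were not called. Of 43 cytochrome P450 genes 14 were called lower and 0 higher (median -0.27), of 44 dehydrogenases, oxidases and carboxylesterases 10 and 0 (median -0.25), of 38 conjugating enzymes 7 and 0 (median -0.19) and of 16 enzymes of bile acid synthesis 7 and 1 (median -0.30). Cyp4f15, a fatty acid hydroxylase, had 10.08, 8.62 and 8.89 at 4 h and 10.93, 9.43 and 9.33 in control cells (-0.70 ± 0.08, limma adjusted p = 0.00218). Its level differed more between replicates than between groups, which was most marked in the aldehyde oxidase Aox3, with 10.83, 6.32 and 6.46 at 4 h and 11.39, 6.92 and 6.85 in control cells. The pair differences of Aox3 were -0.55, -0.60 and -0.39 (-0.51 ± 0.07, adjusted p = 0.00334), and with no replicate block its adjusted p was 0.996. Cyp27a1, the sterol hydroxylase of the acidic bile acid pathway, showed no such split, with 12.57, 12.44 and 12.44 at 4 h and 12.84, 12.85 and 12.82 in control cells (-0.36 ± 0.07, adjusted p = 0.0151). Acox2, a peroxisomal oxidase of bile acid side chains, was the member that rose, at 0.27. Of 44 genes of cholesterol and fatty acid synthesis 9 were lower and 0 higher, with the desaturase Scd2 at -0.63 ± 0.09 and Insig2, a brake on sterol regulation, at -0.55 ± 0.09. Of 50 genes of fatty acid oxidation, ketogenesis and peroxisomes 7 were lower and 0 higher, with a median of -0.10 and 16 positive changes. Among the 7, the fatty acid transporter Cd36 had 6.81, 7.23 and 7.31 at 4 h and 7.50, 7.74 and 7.83 in control cells (-0.57 ± 0.07, adjusted p = 0.00292). Without replicates 1, 2 and 3, 6, 0 and 1 of the 14 cytochrome P450 calls remained.

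Some genes of secreted plasma proteins were lower as well, and most were not called. Of 23 complement genes 10 were called lower and 0 higher (median -0.28), and of 24 coagulation genes 7 were lower and 1, the factor F11, higher (median -0.20). C4bp, the C4b-binding protein, had 11.47, 10.39 and 10.44 at 4 h and 12.00, 10.88 and 10.83 in control cells (-0.47 ± 0.07, limma adjusted p = 0.00436). C2 had pair differences of -0.58, -0.33 and -0.32. Serpina10, the inhibitor that acts with protein Z, stood at -0.62 ± 0.07 with pair differences of -0.67, -0.61 and -0.58 (adjusted p = 0.002). In all 3 genes the 4 h array of replicate 1 lay above the control arrays of replicates 2 and 3, so the groups overlapped although each pair differed. Of 22 acute phase proteins 5 were lower and 0 higher, and of 9 fibrinolysis genes 3 were lower and 1 higher (median 0.01). The ferrireductase Steap4 and the iron sensor Tfr2 were the called members of 21 iron genes, at -0.71 ± 0.10 and -0.40 ± 0.07. Of the 10 complement calls 6, 0 and 0 remained without replicates 1, 2 and 3.

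**Figure D4:**
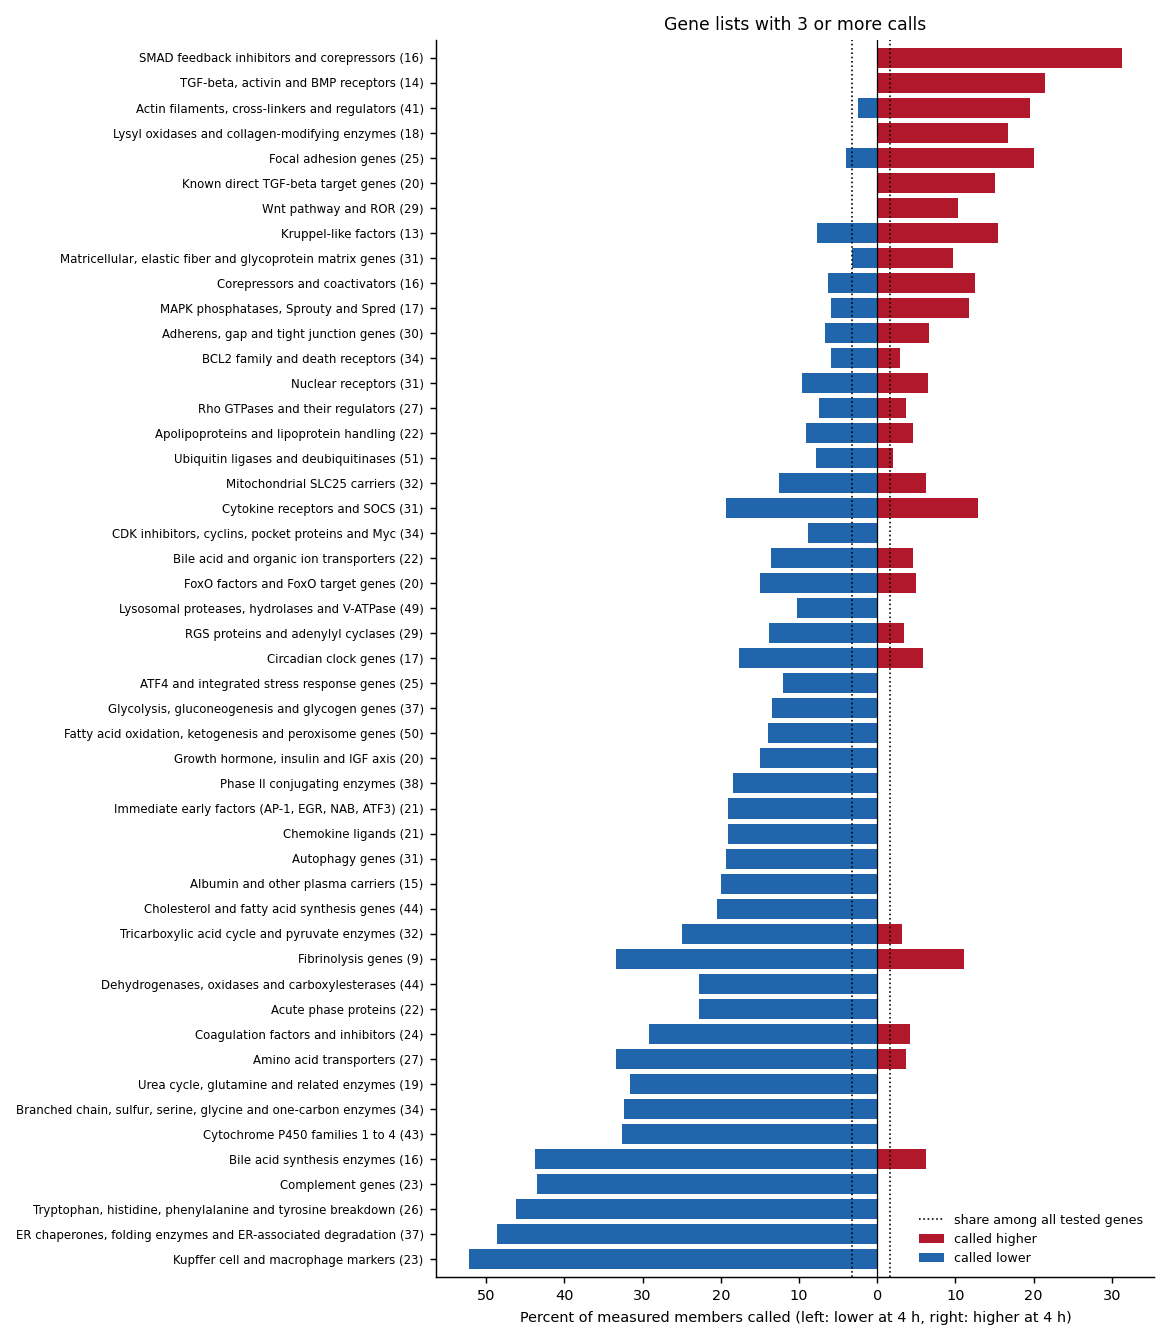
Percent of measured members called higher (red, to the right) and lower (blue, to the left) at 4 h with TGF-β1 against control cells (x axis), for the gene lists with 3 or more calls and the macrophage markers (y axis, measured members in parentheses). Dotted lines are the shares among all tested genes, 1.66% higher and 3.19% lower, and are not matched for signal. Lists of the TGF-β pathway and the cytoskeleton stand at the top and lists of the ER, amino acid breakdown and complement at the bottom.

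Genes of several smaller lists of signaling, fasting and clock genes are given next, some chosen after seeing their values. Of 20 FoxO factors and targets 1 was called higher and 3 lower. Pdk4, a kinase that blocks pyruvate oxidation, was higher, with 11.64, 12.68 and 12.49 at 4 h and 10.95, 11.49 and 11.54 in control cells (0.95 ± 0.17, limma adjusted p = 0.0118), whereas Pdk1 and Pdk3 were lower at -0.40 and -0.46. The other called FoxO targets, Depp1, Klhl24 and Ccng2, were lower. Igfbp1, a secreted protein that binds insulin-like growth factors, had 12.28, 12.99 and 12.88 at 4 h and 13.24, 13.45 and 13.38 in control cells, with no overlap (-0.64 ± 0.10, adjusted p = 0.00576). The glucagon receptor Gcgr stood at -0.40 ± 0.08, and the G protein regulator Rgs16 at -0.73 ± 0.14. Adcy9, which makes cyclic AMP, was higher, with 8.74, 9.10 and 8.84 at 4 h and 7.80, 8.08 and 8.18 in control cells (0.87 ± 0.08, adjusted p = 6.85e-04). Of 17 clock genes Nr1d1, Nr1d2 and Dbp were lower, at -0.67 ± 0.12, -0.42 ± 0.09 and -0.25 ± 0.06, and Per2 was higher at 0.39 ± 0.07. The signaling genes Stat3 and Stat5b were lower, at -0.35 and -0.38, among 31 cytokine receptors and SOCS genes of which 4 rose and 6 fell. Without replicate 3, the calls of Pdk4, Igfbp1 and the 4 clock genes were lost (limma, adjusted p between 0.0775 and 0.256). Without replicate 2 all of these but Igfbp1 were lost as well (limma, adjusted p between 0.0646 and 0.239). Without replicate 1 the call of Dbp was lost (limma, adjusted p = 0.111).

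The largest falls under 2-fold included genes of leukocytes. Cd74, the invariant chain of class II antigen presentation, had 6.95, 6.99 and 6.63 at 4 h, against 8.14, 7.76 and 7.62 in control cells (-0.98 ± 0.12, limma adjusted p = 0.00214). The lipase Pla2g7, which degrades platelet-activating factor, had 7.88, 8.16 and 8.13 at 4 h and 9.06, 9.20 and 8.80 in control cells (-0.97 ± 0.10, adjusted p = 0.00116). Cybb, the catalytic subunit of the phagocyte NADPH oxidase, had 6.92, 7.32 and 7.18 at 4 h and 7.77, 8.32 and 8.20 in control cells (-0.96 ± 0.07, adjusted p = 2.11e-04). None of these 3 genes overlapped between the groups. Ms4a8a and the transcription factor Zhx2, known in liver as a repressor of fetal genes, stood at -0.84 ± 0.09 and -0.81 ± 0.07 (adjusted p = 0.00135 and 6.85e-04). Of 23 markers of Kupffer cells and macrophages 12 were called lower and 0 higher, with a median of -0.43. The mean log2 signal of these markers was 7.29, 7.35 and 7.35 at 4 h, against 7.81, 7.82 and 7.70 in control cells. Lyz2, Adgre1 and Csf1r stood at -0.82, -0.44 and -0.57, while the Kupffer cell marker Clec4f stood at 0.07 and Marco at -0.08 without a call. The markers are present on the arrays of both groups, and their part in the falls of other genes was not tested. Fewer cells of a type and less RNA per cell cannot be told apart in these samples. Of 13 hepatocyte markers, Tdo2, Tat and Asgr1 were lower, 10 were not called and 0 were higher, and of 16 markers of sinusoidal endothelial cells 2 were lower and of 16 markers of stellate cells 1, Dcn. Of the 12 macrophage calls 12, 4 and 2 remained without replicates 1, 2 and 3.

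Several groups held few or no calls, beside 4.85% of all tested genes called. That share is not matched for signal, and calls were more frequent at high signal, so these counts are not read as a result about the groups. Of 36 proteasome subunits, 52 cytosolic ribosomal proteins, 20 liver transcription factors, 12 keratins and other intermediate filaments, and 21 matrix proteases and their inhibitors, 0 were called in either direction, and the medians were 0.07, 0.04, 0.10, 0.08 and -0.01. Hnf4a, the nuclear receptor that maintains hepatocyte genes, had 12.49, 12.88 and 12.69 at 4 h and 12.31, 12.59 and 12.62 in control cells (0.18 ± 0.09, limma adjusted p = 0.325). Cdh1 (E-cadherin) stood at -0.06 ± 0.07 (adjusted p = 0.756) and Tgfbr2 at -0.21 ± 0.07 (adjusted p = 0.157). Among 22 transcription factors of the epithelial-mesenchymal transition and SOX factors, the only call was Zeb2 at -0.40, and Zeb2 is also expressed by macrophages. Of 45 genes of ribosome biogenesis 2 were higher and 38 had positive changes (median 0.11), and of 37 DNA replication genes Mcm6 and Rrm1 were higher, at 0.79 ± 0.18 and 0.68 ± 0.15 with pair differences of 0.30, 1.18 and 0.88 and of 0.17, 1.10 and 0.77.

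The values at 20 min and 2 h are given as a description. Against control cells, 0 genes passed the threshold in limma either at 20 min or at 2 h. An unadjusted p under 0.05 in limma was found in 1708 and 1263 genes, and at 4 h in 3465. With no change at all, a share of 0.05 of the 19938 tested genes would reach it, which is fewer than any of these counts. Since 0 genes passed the adjusted threshold at 20 min or 2 h, the counts at these times are not read as a response. Both comparisons share the control arrays by which the 4 h calls were made, which by itself pulls their medians in the same direction, so no course of the change is read from them. In the genes called higher under 2-fold the median log2 fold change was 0.10 at 20 min, 0.16 at 2 h and 0.41 at 4 h, and in those called lower it was -0.20, -0.19 and -0.40. The ER list had medians of -0.22, -0.21 and -0.28 at 20 min, 2 h and 4 h, and the macrophage markers of -0.09, -0.29 and -0.43. Medians of the enzymes of tryptophan, histidine, phenylalanine and tyrosine were -0.14, -0.06 and -0.34. In the direct comparison of 4 h with 2 h, limma called 16 genes (0.0802%), all of them also called at 4 h against control. Under 2-fold at 4 h, these included Tbl1xr1, which differed by 0.64 ± 0.10 between 4 h and 2 h (adjusted p = 0.0489), Prune1, a phosphatase of short-chain polyphosphates, by 0.43 ± 0.06 (adjusted p = 0.0349), Slco1a1, an uptake transporter for bile acids and other organic anions, by -0.57 ± 0.07 (adjusted p = 0.0349), and Pfkfb3 by -0.55 ± 0.07 (adjusted p = 0.0349). Without replicates 1, 2 and 3 this count was 6, 0 and 0.

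**Figure D5:**
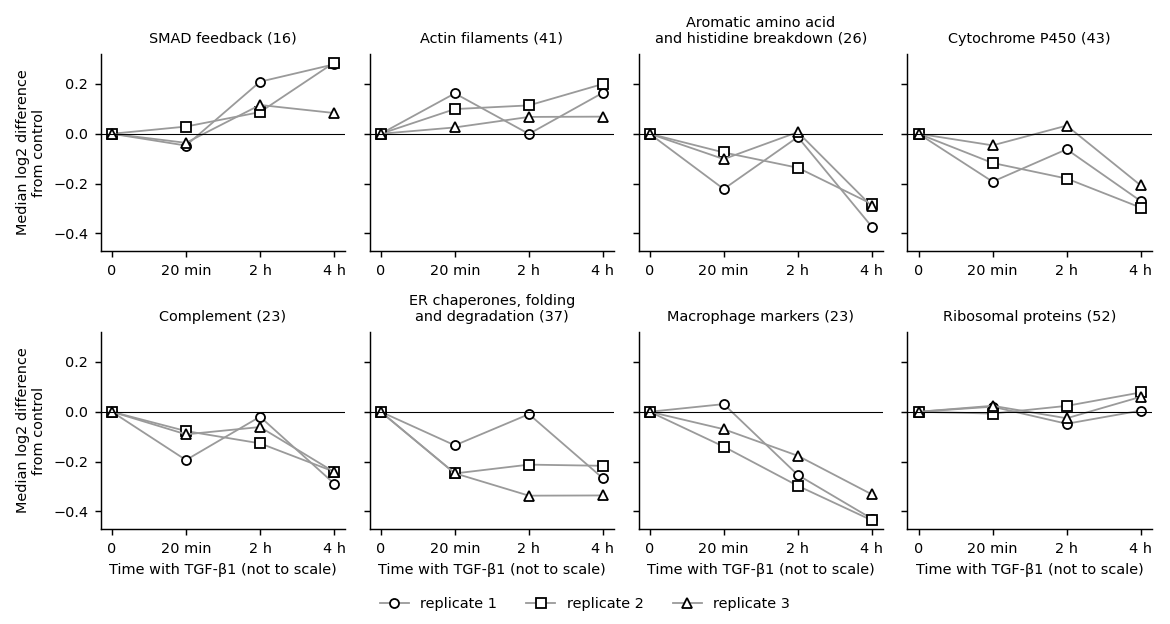
Median log2 difference from the control array of the same replicate (y axis) at 0, 20 min, 2 h and 4 h with TGF-β1 (x axis, not to scale) for 8 gene lists, with measured members in parentheses. Symbols mark the replicates (1, circle; 2, square; 3, triangle); the medians of the macrophage markers and of the amino acid, P450 and complement lists are lowest at 4 h in each replicate, and those of the ER list lie below 0 at every time. All times are set against the same control arrays.

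Short motifs in promoters were set beside the calls as a description. The windows were the 250 bases before each start, both strands were searched, and 260 of the genes called higher, 499 of those called lower and 15614 of all tested genes had a promoter in the table. The SMAD box AGAC, or GTCT on the other strand, was present in 82.3% of the genes called higher, 86.6% of those called lower and 84.2% of all, and the longer SMAD element CAGACA, which contains it, in 16.5%, 15.4% and 17.2%. The TEAD motif GGAATG was found in 14.2%, 16.2% and 13.2%, the AP-1 motif TGACTCA in 6.92%, 4.61% and 4.75%, and the HNF4 motif CAAAGTC in 4.62%, 7.01% and 4.28%. TGTTTAC, bound by FOXO and FOXA factors, was held by 3.85%, 4.01% and 3.18%, TGACGT of CREB and ATF factors by 9.23%, 7.82% and 8.95%, the E-box CACGTG by 7.69%, 10% and 8.11%, and GCGGGGG of EGR factors by 18.5%, 13.8% and 14.8%. No test was made on these shares, and the windows hold only the bases next to the start.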

How the data were processed

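The authors deposited log2 values per probe set for 12 Affymetrix Mouse Gene 1.0 ST arrays, summarised with RMA in Affymetrix Power Tools; the version is not given in the sources used here. Intensities had thus been background corrected, normalized between arrays and put on the log2 scale before deposit, which draws array distributions together, and precision is limited by how many arrays there are. These log2 values were used as deposited, with no batch adjustment beyond the replicate term of the fit. Array medians lay between 6.82 and 6.93, and 0 array pairs were identical. Probe sets without a symbol (12146) or with several (1621) were left out of the main fit.

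Limma 3.58.1 in R 4.3.3 was fitted to all 12 arrays with time and replicate number as factors, followed by eBayes and Benjamini-Hochberg adjustment. Same-numbered 4 h and control arrays deviated together (correlations of their deviations from the group means of 0.77, 0.56 and 0.68), all above the limit of 0.1 set for pairing. The check sets replicate 1 apart but does not tell replicates 2 and 3 from each other: 4 h replicate 2 correlated at 0.65 with control replicate 3, and 4 h replicate 3 at 0.68 with control replicate 2. The script was tested on simulated data. Members and gene lists were chosen with earlier results of these data known. Genes named are, per list, up to 4 called members with the smallest p, or the member with the smallest p where none was called; among calls under 2-fold that agree in 3 pairs, the 15 largest and the 10 with the smallest p in each direction; calls of at least 2-fold; and Smad7, Skil, Tgfbr2, Egr1, Hnf4a, Alb and Cdh1. Spsb1, Slc7a6, Myh10, Creld2, Calr, Hsp90b1, Hspa5, Xbp1, Acox2, Pdk1, Pdk3, Stat3, Stat5b, Lyz2, Adgre1, Clec4f, Marco and the sex-linked genes fall outside it and were chosen after seeing their values. Alternative settings were other replicate blocks, probe set filters, normalizations, variance priors, array weights, thresholds and leaving out each replicate or array.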

Additional observations from a re-analysis of the deposited data

Results flagged for a closer look

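The change at 4 h differed from the change at 2 h, by the limma contrast of 4 h with 2 h, in 15 named genes. Those higher at 4 h than at 2 h were Pmepa1 by 1.57 (adjusted p = 0.0483), Thbs1 by 1.34 (adjusted p = 0.0425), Il22ra1 by 1.09 (adjusted p = 0.0483), Mical2 by 0.84 (adjusted p = 0.0349), Pdlim7 by 0.70 (adjusted p = 0.0349), Tbl1xr1 by 0.64 (adjusted p = 0.0489), Bcar3 by 0.64 (adjusted p = 0.0393), Clic4 by 0.60 (adjusted p = 0.0483), Adcy9 by 0.57 (adjusted p = 0.0393) and Prune1 by 0.43 (adjusted p = 0.0349) on the log2 scale. Those lower at 4 h were Slco1a1 at -0.57 (adjusted p = 0.0349), Pfkfb3 at -0.55 (adjusted p = 0.0349), Cybb at -0.52 (adjusted p = 0.0349), Aox3 at -0.49 (adjusted p = 0.0393) and Zhx2 at -0.47 (adjusted p = 0.0489). The 16th call, Tgm1, lies outside the naming rule and was seen at -0.55 (adjusted p = 0.0495).

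Among the probe sets with no gene symbol, which no comparison above uses, 13 were called higher and 31 lower at 4 h in the limma fit of all probe sets, with log2 fold changes of up to 1.32 and down to -1.14.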

How the results depend on the processing

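The count of calls moved with the processing. The main fit gave 966 calls (330 higher, 636 lower), 938 under 2-fold and agreeing, 27 of at least 2-fold, and 16 for 4 h against 2 h. With no replicate block, limma called 30 genes (11 higher, 19 lower), 24 under 2-fold and 6 of at least 2-fold, and with the block as a random effect 219 (86 and 133), 200 under 2-fold. On the 4 h and control arrays alone the counts were 340 (120 and 220) and 314, and this fit gives no value for 4 h against 2 h. With all probe sets they were 315 (97 and 218) and 296, with array weights 1704 (652 and 1052) and 1560, and in a test against a fold of 1.2, 33 (17 and 16), 16 under and 17 over 2-fold. At an adjusted p under 0.01 they were 239 (80 and 159) and 219, and under 0.1, 1553 (551 and 1002) and 1517. For 4 h against 2 h the count was 0 with no block, a random block and all probe sets. It was also 0 in the fold test and at the threshold of 0.01. Quantile normalization gave 6, probe sets of at least median signal alone 45, and a trended and robust prior 98. The threshold of 0.1 gave 119 and array weights 189. For 4 h against 2 h, an unadjusted p under 0.05 in limma was found in 1807 genes. With no change a share of 0.05 of the tested genes would reach it, which is fewer. The higher share of calls was 34.2% in the main fit, 40.2% after quantile normalization, 51.5% in the fold test, 49.5% without replicate 1, 48.4% without replicate 3 and 25.9% without control replicate 2, so the excess of lower calls was not kept in the fold test or without replicate 1 or 3.

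Leaving out a replicate or an array gave 31 to 942 calls, 15 to 466 higher, 16 to 476 lower, 17 to 902 under 2-fold, 14 to 40 of at least 2-fold, and 0 to 18 for 4 h against 2 h. The fewest calls were left without replicate 3, 31, and then without replicate 2, 99. Single arrays did not set replicate 3 apart from replicate 2. Without 4 h replicate 2 or 3, 349 and 348 calls were left, and without control replicate 2 or 3, 370 and 516. Of 242 named called genes, 12 were called under every alternative that tested them: Adcy9, Ccn2, Clic4, Depp1, Il22ra1, Lnx2, Mical2, Ms4a8a, Pla2g7, Pmepa1 and Zhx2 in 22, and Ms4a4a in 21. Signs turned only in genes that were not called: Alb stood at 0.0018 with array weights and between -0.056 and 0.028 over the fits that left out a replicate or an array (0.014 without replicate 2), Cdh1 between -0.13 and 0.012 (0.0081 without control replicate 3), and Mpo between -0.0055 and 0.25. Leaving out a replicate or an array also removes residual degrees of freedom, and beyond that the cause of these shifts was not tested.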

Other observations

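Some families of genes were not described above. Of 302 microRNA genes 1 was called higher and 0 lower, and of 1194 olfactory and vomeronasal receptors 0 were called. Calls were few at low signal, and the signal of these families was not set beside their counts. Of 379 solute carriers 6 were higher and 27 lower, and of 55 small nucleolar RNA genes 0 were higher and 4 lower, beside 1.66% higher and 3.19% lower of all tested genes. Of 16 heat shock genes, Hspa4, a nucleotide exchange factor for HSP70, was higher, with 11.99, 12.32 and 12.29 at 4 h and 11.41, 11.85 and 11.91 in control cells (0.47 ± 0.06, limma adjusted p = 0.0033). Gclc, the rate-limiting enzyme of glutathione synthesis, stood at 0.47 (limma, adjusted p = 0.0216), with 13.26, 13.63 and 13.62 at 4 h and 12.66, 13.22 and 13.22 in control cells. Of 65 subunits of the respiratory chain and ATP synthase 2 were called lower and 0 higher, with a median of -0.08 and negative changes in 58. Where a called gene had another probe set, 44 of 48 such probe sets had the same sign and 15 were called in the same direction.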
